A study of Mus musculus with 46 samples.

Results

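The nuclear genes of the mitochondrial respiratory chain and ATP synthase were followed in the ribosome-bound RNA of AgRP and POMC neurons across feeding states. They were chosen by gene symbol alone: Nduf genes (complex I, its assembly factors and the complex IV subunit Ndufa4), Sdha to Sdhd (complex II), Uqcr genes (complex III), Cox4 to Cox8 genes (complex IV) and Atp5 genes (complex V), without pseudogenes. The rule found 90 of the 31854 genes in the count table. These were 36 subunits of complex I, 7 assembly factors of complex I (Ndufaf1 to Ndufaf7), 4 subunits of complex II, 7 of complex III, 20 of complex IV (with the isoforms of Ndufa4 and with Cox7a2l, which bears on supercomplexes), 14 of ATP synthase, and Atp5s and Atp5sl, which carry the symbol but are not subunits of the enzyme.

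The respiratory chain passes electrons from NADH (through complex I) and from succinate (through complex II) to ubiquinone, on through complex III to cytochrome c, and through complex IV to oxygen. Complexes I, III and IV pump protons across the inner mitochondrial membrane, and ATP synthase uses the returning protons to make ATP. Most subunits are encoded in the nucleus, a few of the core ones in mitochondrial DNA (not analysed here). AgRP neurons drive feeding and fire more during a fast, and POMC neurons restrain feeding, so the ATP supply of both cell types is of interest in energy balance.

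RNA was obtained by TRAP from NuTRAP mice, in which Cre removes a stop cassette and a GFP-tagged L10a ribosomal protein is then made. AgRP-IRES-Cre or POMC-IRES-Cre drove the tag, so every group carried the NuTRAP transgene and 1 of these Cre alleles. A Cre driver of this kind tags any cell with a history of its activity. Mice were fed ad libitum, fasted overnight, or fasted overnight and given leptin; fed and fasted mice received vehicle. The AgRP samples each held the arcuate nuclei of 4 male mice of 6 to 11 weeks. The AgRP line gave 11 libraries (fed replicates 1, 3 and 4, fasted 1 to 4 and leptin 1 to 4) and the POMC line gave 6 (2 per state). ATAC-seq of sorted nuclei of the AgRP line gave 10 further libraries, 2 each from AgRP-positive nuclei of fed, fasted and leptin-treated mice and 2 each from AgRP-positive and AgRP-negative nuclei. RNA libraries held 25581041 to 54511107 gene counts, and ATAC libraries 8263234 to 17190963 peak counts.

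The AgRP markers (7 genes, Agrp and Npy among them) summed to 1723 to 6651 CPM (counts scaled to the library's total) in AgRP libraries and 155 to 236 CPM in POMC libraries. The POMC markers (5 genes) summed to 286 to 410 and 1818 to 3265 CPM in the same order. All AgRP replicate-4 and POMC replicate-2 libraries stood apart: their astrocyte markers (6 genes) summed to 866 to 1172 CPM against 416 to 759 in the other libraries, and their oligodendrocyte markers (6 genes) to 722 to 974 against 420 to 699. The astrocyte glutamate transporter Slc1a2 was at 20153 to 26933 CPM in them and at 2378 to 6196 elsewhere. Microglial markers reached 38.7 to 55.6 CPM against 18.3 to 42.0, and tanycyte and ependymal markers 104 to 143 against 52.3 to 120; endothelial markers overlapped (48.5 to 97.2 against 63.8 to 111). No marker was at 0 in any library. The part of these cells in the results below was not tested, and only some of the results that rest on these libraries are also given without them.

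Per kilobase of gene model, 3 genes of ATP synthase had the highest levels. In fed AgRP neurons the catalytic subunit Atp5b stood at a mean of 440 CPM per kb (359 to 526, n = 3) and its partner in the F1 head, Atp5a1, at 337 (284 to 392). These neighbours in the order overlapped in their ranges. Next came Atp5g3, a gene for the proton-carrying c ring, at 211 CPM per kb (177 to 252), Cox4i1, the regulatory subunit of complex IV, at 194 (174 to 233), and Ndufa4 of complex IV at 178 (146 to 214). The complex III core protein Uqcrc1 was at 157 (141 to 186), and Sdhb, the iron-sulfur subunit of complex II, was at 135 (123 to 158). From Atp5g3 on, each of these overlapped its neighbours, while Atp5g3 lay below the range of Atp5a1.

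By complex, the median over genes in fed AgRP neurons was 70.1 CPM per kb for complex II, 61.1 for complex III, 50.0 for complex V, 41.3 for complex I, 33.7 for complex IV and 8.0 for the complex I assembly factors. In fed POMC neurons the medians were 62.4, 53.5, 47.9, 34.2, 30.2 and 7.06 in the same sequence. The order was the same in both lines. It depends on the tissue isoforms near 0: over the genes that entered the tests, complex IV (12 genes) had the highest median, 92.5 in fed AgRP and 82.0 in fed POMC neurons, and complex V (12 genes) had 64.5 and 62.1. The assembly factors, which help to build complex I but are not part of it, had the lowest median of these groups either way.

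**Figure D1:**
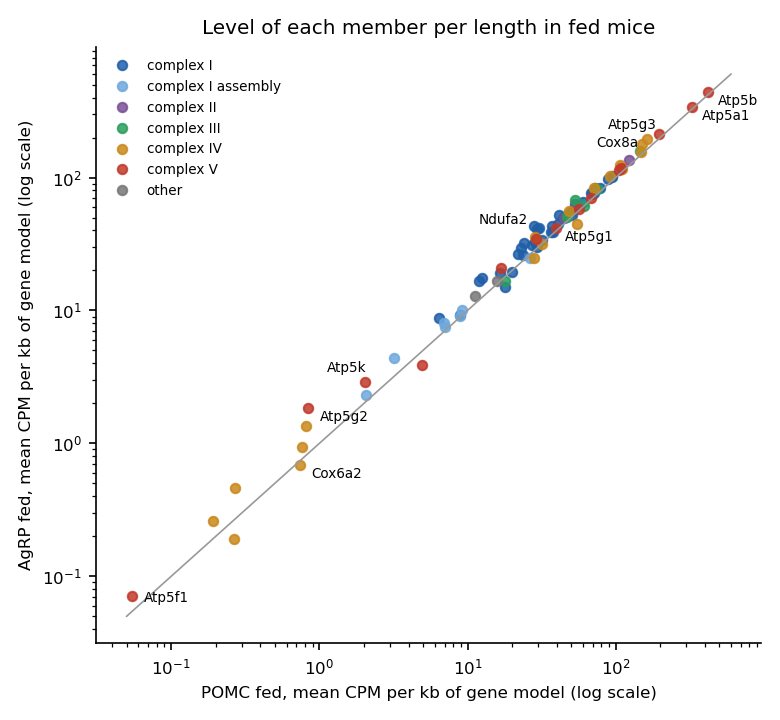
Mean level of each gene in fed POMC neurons (horizontal axis) against fed AgRP neurons (vertical axis), in CPM per kilobase on log axes, coloured by complex; genes at 0 in either line are not drawn. Levels reach 440 CPM per kb for Atp5b in AgRP neurons, and most points lie along the diagonal.

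Where a subunit has tissue isoforms, the widely expressed form carried nearly all of the RNA. Cox4i1 was at 194 CPM per kb in fed AgRP neurons and Cox4i2, the isoform linked to oxygen sensing in lung, at 0.261. Cox8a was at 155 CPM per kb, while Cox8b and Cox8c were at 0 in all 3 fed AgRP libraries. Cox7a2 was at 102 CPM per kb and the muscle form Cox7a1 at 1.34. Cox6b1 was at 124 and the testis form Cox6b2 at 0.459. Cox6a1 was at 44.5 and the muscle form Cox6a2 at 0.691, and Ndufa4 was at 178 with Ndufa4l2 at 0.946. Cox7b was at 56.2 and Cox7b2 at 0.191. The 3 genes that encode the same mature c-ring protein were unequal, with Atp5g3 at 211 CPM per kb, Atp5g1 at 41.5 and Atp5g2 at 1.83.

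Of the 90 genes, 80 had a mean over 1 CPM and entered the tests in AgRP libraries. The 10 below were the isoforms Cox4i2, Cox6a2, Cox6b2, Cox7a1, Cox7b2, Cox8b, Cox8c and Ndufa4l2, and the ATP synthase subunits Atp5f1 and Atp5k. Cox8c had no count in any of the 17 libraries and Cox8b had 1 count in all. Atp5f1 encodes the b subunit of the ATP synthase stalk, yet had only 1 to 13 counts per library, while the ATAC-seq peak at its start site held 50.3 to 73.4 CPM. Atp5f1 has 1 near-identical copy elsewhere in the genome and Atp5k has 2, and reads that fit several copies can be lost or split, so the RNA levels of these 2 genes are uncertain. In all, 33 of the 90 genes had such a copy (at least 90% identity over at least 200 bases), among them Atp5l with 17 and Ndufb2 and Cox7c with 6 each. Of these, 10 were in complex IV and 8 in complex V. The levels of these genes carry the same limit, also in the order, isoforms and medians by complex given above.

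No respiratory chain gene passed the test between fasted and fed AgRP neurons. The test was edgeR's quasi-likelihood test over all 13401 genes, and a gene was called when its Benjamini-Hochberg adjusted p was under 0.05 and its log2 fold change beyond 0.5 in either direction. Of the 80 genes tested, 0 were called, against 3.89% of all genes (378 higher and 143 lower), and 2 lay higher and 2 lower at an unadjusted p under 0.05. DESeq2 also called 0. Of the fold changes, 66 of 80 were above 0, and the median was 0.12 on the log2 scale, against 0.02 over all genes. With replicate number as a block the median was 0.067 and 58 of 80 were above 0. Without the 3 replicate-4 libraries, an alternative chosen after seeing the data, 0 genes were called and the median was 0.13. In these bulk samples a lower level may come from fewer tagged cells or from less RNA per cell, and the 2 cannot be told apart.

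Differences between complexes were not tested. In fasted minus fed AgRP neurons, the median log2 fold change was 0.18 in complex III (7 of 7 above 0), 0.17 in complex IV (12 of 12) and 0.18 in complex V (12 of 12). It was 0.11 in complex I (29 of 36), 0.09 in its assembly factors (4 of 7) and 0.02 in complex II (2 of 4). None of the complexes held a called gene. These values by complex are without the replicate block. The fed group had no replicate 2, and fasted replicate 2 lay above the AgRP mean in complexes III (0.20), IV (0.23) and V (0.31 in mean log2 CPM). The part of this in the medians by complex was not tested. Other lists in the same comparison also had medians away from 0: the AgRP markers had 7 of 7 above 0 (median 0.66) and cytosolic ribosomal protein genes 75 of 77 (0.27). Astrocyte markers had 0 of 6 above 0 (median -0.28), oligodendrocyte markers 1 of 6 (-0.21) and microglial markers 0 of 5 (-0.62). No gene of these lists was called. All 7 AgRP markers lay higher at an unadjusted p under 0.05 in the same test (log2 fold changes of 0.45 to 1.81). The authors report Agrp and Npy among the genes induced by fasting in AgRP neurons, so a gene not called here is not shown to be unchanged. The part of these lists in the fold changes of the chain genes was not tested. The intervals allow limited change for many genes: the 95% interval of the log2 fold change stayed within 0.5 of 0 for 37 genes and within 1 for 75 of 80.

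**Figure D2:**
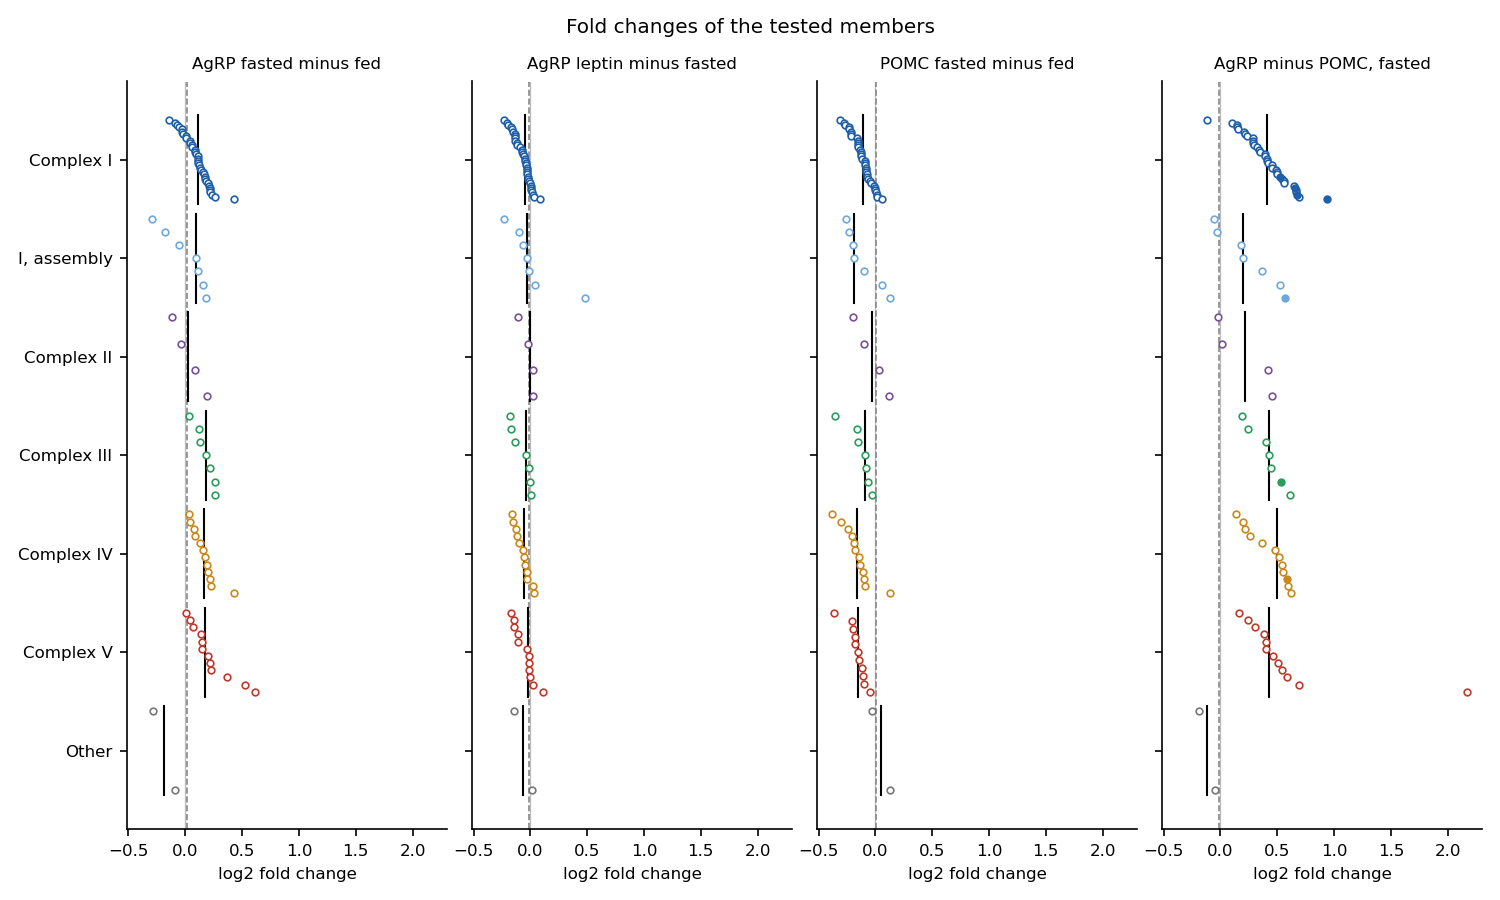
Log2 fold change of each tested gene (horizontal axis) by complex (vertical axis) in 4 comparisons; filled points passed the test, black bars are medians of the complex and the dashed line is the median over all genes. In fasted minus fed AgRP neurons, without a replicate block, no point is filled and the points of complexes III, IV and V lie right of 0. In fasted AgRP minus POMC neurons 7 points are filled.

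In complex I, the core subunits named here did not pass the test. Ndufs1, the largest subunit of the electron-accepting arm, was at 158 ± 4.61 CPM in fed AgRP neurons (SD, n = 3) and 153 ± 18.9 in fasted ones (n = 4), with a log2 fold change of -0.03 (95% interval -0.24 to 0.17). Ndufv1, which binds NADH, gave 0.21 (-0.19 to 0.61).

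The accessory subunit Ndufa1 was the 1 gene of the 80 whose fasted libraries all lay above the fed ones, which held for 9.81% of all genes. Ndufa1 was at 14, 15.3 and 14.7 CPM in the 3 fed AgRP libraries, at 17, 20.4, 23.7 and 17.3 in the 4 fasted ones, and at 13.6, 18.4, 19.7 and 16.2 in the 4 leptin-treated ones. With fasting it gave a log2 fold change of 0.43 ± 0.15 (SE) with an adjusted p of 0.133, short of the threshold. The leptin-treated libraries overlapped both other groups.

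The assembly factor Ndufaf5, a hydroxylase that modifies a complex I subunit during assembly, had the lowest fold change. It was at 21.3, 22.1 and 26.8 CPM in fed AgRP libraries, at 17.8, 19.8, 17.6 and 20.4 in fasted ones and at 18.7, 20.7, 18.5 and 20.04 with leptin. All fed libraries lay above all fasted and leptin-treated ones, and 9.49% of all genes had every leptin-treated library below every fed one. Fasting gave a log2 fold change of -0.30 ± 0.11 (SE), adjusted p 0.164. Atp5s was the other gene with every fasted library below every fed one, at 24.4 to 27.6 CPM fed and 20.3 to 22.4 fasted (-0.29 ± 0.10, adjusted p 0.134); 7.51% of all genes showed this separation. Ndufaf2, a further assembly factor, came next from below at -0.18 ± 0.18.

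In complex II, the link to the citrate cycle, no subunit passed the test. Sdha, its flavoprotein, was at 359 ± 44.3 CPM in fed, 329 ± 47.4 in fasted and 324 ± 37.5 in leptin-treated AgRP neurons, and Sdhb was at 145 ± 20.6, 165 ± 27.5 and 167 ± 25.0. The membrane anchors Sdhc (70.2 ± 9.54 fed, 74.2 ± 12.4 fasted) and Sdhd (63.7 ± 8.83 and 61.7 ± 9.13) differed by less than their spread. In complex III, Uqcrc1 was at 261 ± 41.6 CPM fed and 312 ± 72.7 fasted (0.27, interval -0.15 to 0.68), Uqcrc2, the other core protein, gave 0.03 (-0.25 to 0.31), and the Rieske iron-sulfur protein Uqcrfs1 gave 0.12 (-0.12 to 0.35).

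In complex IV, Cox4i1 gave 0.13 (-0.30 to 0.56) and Cox5a, a subunit on the matrix side, 0.22 (-0.06 to 0.49). Cox7c had the largest fold change of complex IV at 0.43 ± 0.50 (SE). It was at 5.05, 15.0 and 13.1 CPM in fed AgRP replicates 1, 3 and 4 and at 6.12, 17.1, 19.4 and 16.4 in fasted replicates 1 to 4. Within each state, replicate 1 was the lowest by far, so the spread between replicates exceeded the difference between states.

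The same shape was seen in ATP synthase. Atp5g1 was at 18.3, 50.2 and 39.6 CPM in fed AgRP replicates 1, 3 and 4, at 22.4, 61.9, 73.2 and 48.2 in fasted replicates 1 to 4 and at 17.9, 60.3, 64.2 and 43.4 in leptin replicates 1 to 4. Replicate 1 was lowest in each state and replicate 3 highest, and the states overlapped. Fasting gave a log2 fold change of 0.52 ± 0.49 (SE). Atp5g2 had the highest value of all, 0.61 ± 1.05, on 7 to 164 counts per fed or fasted library. The abundant subunits Atp5b (0.07, interval -0.41 to 0.55), Atp5a1 (0.15, -0.28 to 0.59) and Atp5c1 (0.01, -0.34 to 0.35) did not pass the test.

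**Figure D3:**
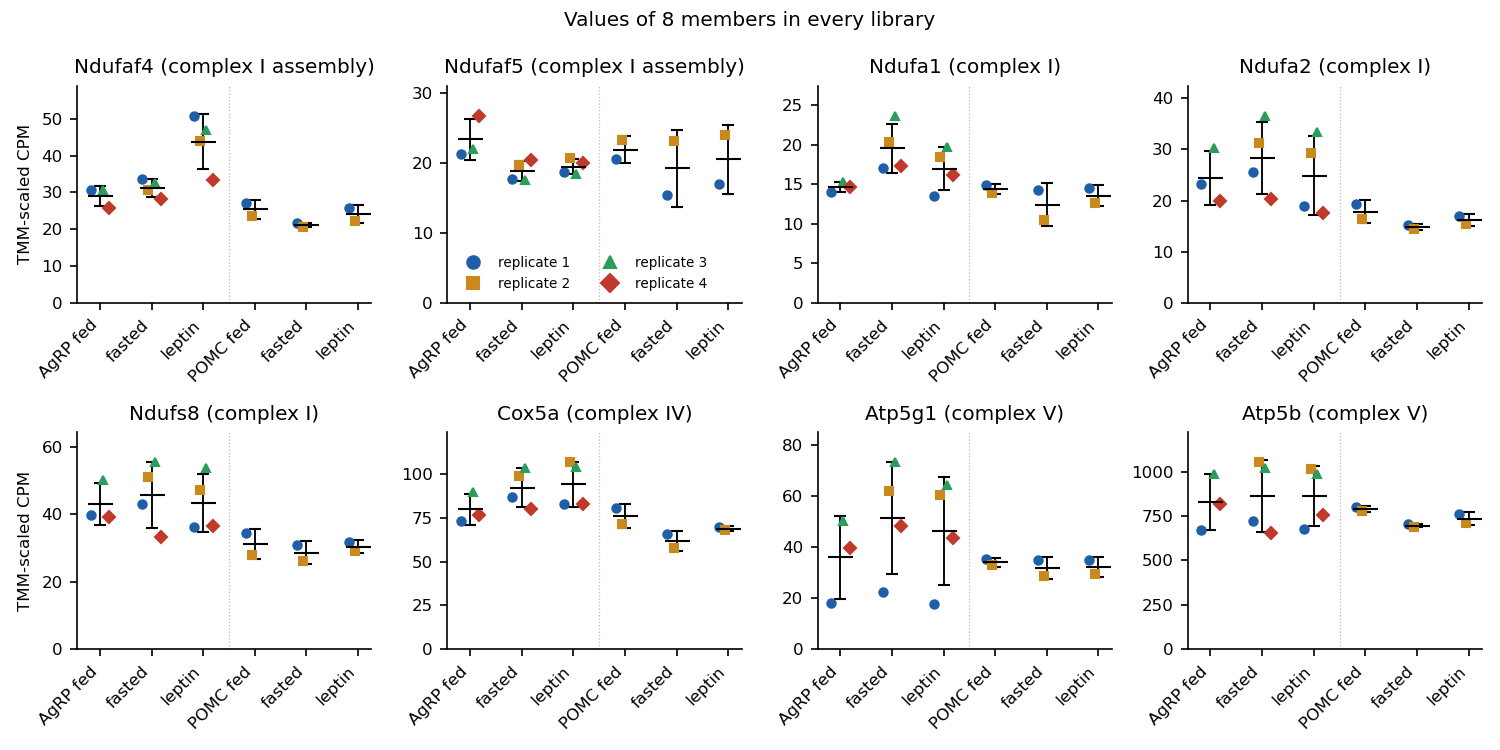
Level in CPM (vertical axis) of 8 genes in each library, by line and state (horizontal axis), with the group mean and SD; marker shape and colour give the replicate number. Ndufaf4 is higher in leptin-treated than in fed AgRP libraries, while leptin replicate 4 lies within the fasted range. Atp5g1 is lowest in replicate 1 of every AgRP state.

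Replicate number, more than feeding state, separated the AgRP libraries in these genes. Over the 79 genes tested in both lines, the mean log2 CPM relative to the AgRP mean was -0.19, 0.17 and -0.11 in fed replicates 1, 3 and 4. It was -0.10, 0.20, 0.26 and -0.17 in fasted replicates 1 to 4 and -0.31, 0.18, 0.22 and -0.15 in leptin replicates 1 to 4. In every state, replicates 1 and 4 were low, and replicates 2 and 3, where present, were high.

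In a model with state and replicate number, the range over the 4 replicate numbers exceeded the range over the 3 states for 77 of the 80 genes, or 96.3%, against 69.9% of all genes. The median range was 0.14 between states and 0.47 between replicate numbers for these genes, and 0.21 and 0.34 for all genes. Complexes IV (0.56 between replicates) and V (0.61) varied most between replicates. Cytosolic ribosomal protein genes, other short and abundant messages, were low in replicate 1 too, at -0.83 fed, -0.61 fasted and -0.75 with leptin relative to their AgRP mean, and the part of this in the chain genes was not tested.

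**Figure D4:**
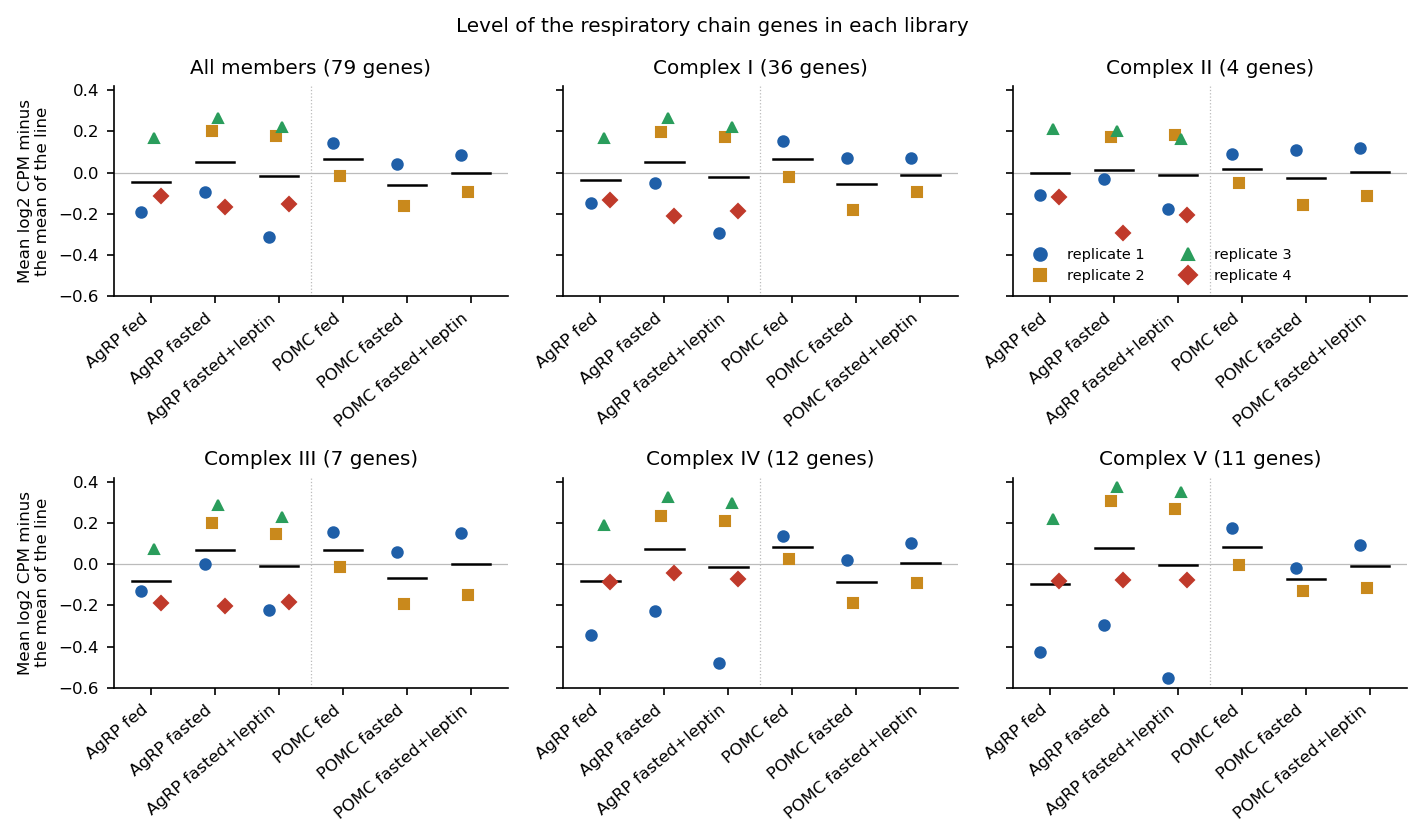
Mean log2 CPM minus the mean of the line (vertical axis) for all 79 genes and for complexes I to V, by library and group (horizontal axis); markers show the replicate number and horizontal bars the group mean. For all 79 genes, the AgRP libraries of replicates 1 and 4 lie below those of replicates 2 and 3 in each state.

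Compared within replicate number, fasted minus fed had a median over the 80 genes of 0.13 in replicate 1 (63 higher), 0.11 in replicate 3 (55 higher) and -0.04 in replicate 4 (33 higher). Replicate 4, whose libraries had the high glial markers, thus did not show the tilt. With replicate number as a block, no gene passed both thresholds, and on adjusted p alone 9 of the 80 genes were under 0.05, against 24.5% of all genes. Of these, 6 were higher in fasted neurons (Atp5g1 0.37, Ndufa1 0.39, Cox7c 0.33, Ndufc2 0.24, Ndufv3 0.21 and Cox5a 0.17 on the log2 scale). The other 3 were lower (Ndufaf5 -0.32, Atp5s -0.30 and Sdha -0.17). This reading of the block without a fold threshold was chosen after seeing the data.

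No chain gene passed the test between leptin-treated and fasted AgRP neurons, and Ndufaf4 came nearest. Ndufaf4 encodes an assembly factor that binds early intermediates of complex I. It was at 33.7, 30.6, 32.6 and 28.1 CPM in the 4 fasted AgRP libraries and at 50.8, 44.1, 46.9 and 33.3 in the 4 leptin-treated ones. Replicates 1 to 3 with leptin lay above every fasted library, and replicate 4 lay within the fasted range. The log2 fold change was 0.48 ± 0.11 (SE) with an adjusted p of 0.0509, so the gene was not called. Over the 80 genes 0 were called (1.83% of all genes were), the median was -0.04 and 18 were above 0. Without leptin replicate 4 Ndufaf4 was called (0.59, adjusted p 0.00588), and so it was without the 3 replicate-4 libraries (0.54, 0.00449). With the replicate block its adjusted p was 0.000546 at a log2 fold change of 0.48, under the fold threshold, and it was the only 1 of the 80 under 0.05 on adjusted p alone, against 7.83% of all genes.

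Against fed mice, leptin-treated AgRP neurons had more Ndufaf4 RNA, and this was the 1 call in any comparison of states. The 3 fed libraries were at 30.7, 30.6 and 25.9 CPM, all below the leptin-treated ones, which held for 10.7% of all genes. The means were 29.0 ± 2.77 (SD, n = 3) and 43.8 ± 7.48 (n = 4). The log2 fold change was 0.60 ± 0.12 (SE; 95% interval 0.33 to 0.87) with an adjusted p of 0.0140, and 3.73% of all genes were called higher. The call was lost when fed replicate 4 was left out (0.52, adjusted p 0.0722) and when libraries were scaled by their size alone (0.55, 0.168). It held without the 3 replicate-4 libraries (0.61, 0.00400) and with the replicate block (0.59, 0.000167), which gave the lowest adjusted p of all settings run. In POMC neurons Ndufaf4 was at 27.2 and 23.6 CPM fed, 21.6 and 20.7 fasted and 25.9 and 22.3 with leptin, and the leptin effect, compared between the lines, did not pass the test (0.30, interval -0.15 to 0.74).

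The rest of the chain stayed within 0.5 on the log2 scale between leptin-treated and fed AgRP neurons, apart from Atp5g2 at 0.72 ± 1.04. The median over the 80 genes was 0.05 with 55 above 0, against -0.01 with 36 above 0 in the replicate block and -0.01 with libraries scaled by size alone. On adjusted p alone in the block, 7 genes passed, against 30% of all genes. Ndufaf4 (0.59) and Cox5a (0.19) were higher, while Ndufaf5 (-0.28), Ndufa7 (-0.24), Sdha (-0.19), Atp5s (-0.30) and Atp5sl (-0.29) were lower.

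The start of Ndufaf4 is shown because it was the gene called between states. The 200 bases before its start site lie at chr4:24897883-24898082 (GRCm38.p6, plus strand, RefSeq). Capitals mark the letters GCGCATGC, bound by the respiratory gene regulator NRF1, found 113 bases before the start on the plus strand and 111 on the minus strand in overlap, and GGGCGG, bound by SP1, found 89 and 84 bases before the start, also in overlap.
Ndufaf4: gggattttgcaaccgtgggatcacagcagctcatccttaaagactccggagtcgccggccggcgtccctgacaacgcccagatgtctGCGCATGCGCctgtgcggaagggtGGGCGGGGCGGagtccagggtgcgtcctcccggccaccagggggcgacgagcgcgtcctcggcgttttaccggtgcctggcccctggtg

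The letters of regulators of mitochondrial genes were counted in the promoters of the chain genes. RefSeq promoters (250 bases before to 50 after the start) were matched for 75 of the 90 genes and searched on both strands. GCGCATGC was in 16% of them, against 2.8% of 27025 promoters of all genes. CCGGAAG, the core of ETS factors such as GABP, was in 21.3% against 9.14%, and AAGATGG, bound by YY1, was in 14.7% against 6.46%. GGGCGG was in 44% against 35.9%, and TATAAA was in 9.33% against 14.2%. The median GC content was 57.3% against 52.7%. A match describes the letters and shows no binding.

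Chromatin was open at nearly all of these starts in AgRP nuclei. ATAC-seq peaks that were tested lay within 500 bases of the start for 61.3% of protein-coding genes with a known start, expressed or not. They lay there for 82 of the 90 chain genes (91.1%), 84 peaks in all. Between fasted and fed mice, 0 of these peaks rose and 4 fell, against 3.6% of all promoter peaks called lower. The median log2 fold change was -0.27 for these peaks, -0.23 for promoter peaks of all genes and -0.04 for all peaks, so these peaks lay close to other promoters.

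The 4 peaks that fell lay at complex I subunits, which make up 36 of the 90 genes. At Ndufb5 the fed libraries held 116.7 and 101.9 CPM and the fasted ones 77.4 and 73.8 (-0.53 ± 0.12, adjusted p 0.00373). Ndufb11, an X-linked membrane-arm subunit, had 45.2 and 41.5 CPM fed and 28.2 and 28.6 fasted (-0.60 ± 0.18, adjusted p 0.0159). Ndufb3, also of the membrane arm, had 25.7 and 32.1 CPM fed and 16.9 and 18.9 fasted (-0.71 ± 0.23, adjusted p 0.0270), and Ndufs4, of the matrix arm, had 20.02 and 18.4 fed and 10.0 and 12.3 fasted (-0.77 ± 0.27, adjusted p 0.0377). Fed and fasted libraries did not overlap at any of the 4, but the peaks were picked by the test on these same libraries, so this adds no support. With 2 libraries per state the count was fragile: it was 0 without fasted replicate 2, 1 without fasted replicate 1, 2 without fed replicate 1 and 2 with scaling by library size. None of the 4 genes was called in the RNA.

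Of these 4, the starts of Ndufb11 and Ndufb3 lay within 20 bases of each other in RefSeq and GENCODE, and the 200 bases before each are shown as the sequence under a peak that fell with fasting. Ndufb11 is at chrX:20617620-20617819 on the minus strand and Ndufb3 at chr1:58586197-58586396 on the plus strand (GRCm38.p6). None of the 5 motifs searched was found in either stretch, so no letters are capitalised.
Ndufb11: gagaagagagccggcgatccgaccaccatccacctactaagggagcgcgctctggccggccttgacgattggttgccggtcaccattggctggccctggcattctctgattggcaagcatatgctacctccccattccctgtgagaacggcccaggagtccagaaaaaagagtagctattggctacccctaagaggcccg
Ndufb3: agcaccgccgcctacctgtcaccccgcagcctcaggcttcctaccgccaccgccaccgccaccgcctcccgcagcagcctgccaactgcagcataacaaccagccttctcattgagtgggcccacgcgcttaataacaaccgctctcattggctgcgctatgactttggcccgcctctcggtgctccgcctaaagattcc

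Between leptin-treated and fasted mice 0 of the 84 peaks were called (0.212% of promoter peaks were), with a median of 0.00. In AgRP-positive against AgRP-negative nuclei, 7 peaks were lower and 0 higher, at a background of 12.3% called lower. These were at Cox6a2 (-1.90), Cox6b2 (-1.10), Ndufa13 (-0.89), Ndufa6 (-0.63), Ndufs1 (-0.57), Ndufa10 (-0.55) and Ndufb3 (-0.53). The median of the 84 peaks was -0.21, and that of all promoter peaks -0.20. Scaling by library size alone raised the median of all peaks from 0.00 to 0.16 and left 2 calls.

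**Figure D5:**
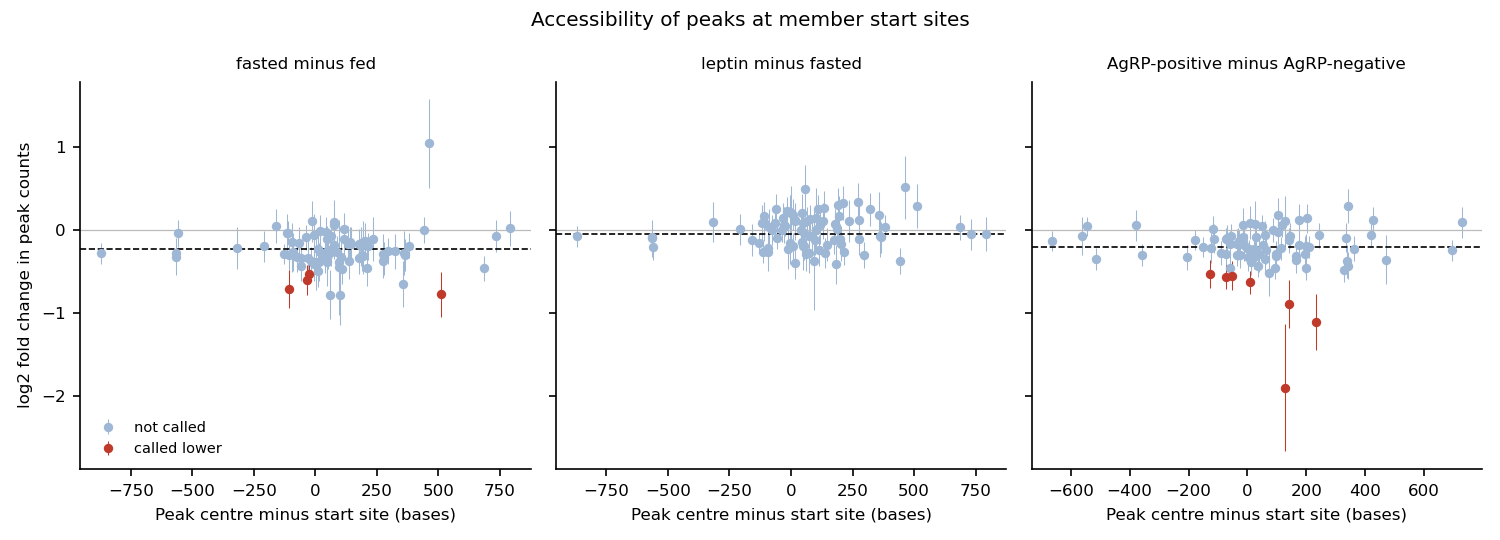
Log2 fold change with SE of each ATAC-seq peak (vertical axis) against the distance of its centre from the start site in bases (horizontal axis), in 3 comparisons; red points were called lower, blue points were not called, and the dashed line is the median of all promoter peaks. Most points lie below 0 in fasted minus fed and in AgRP-positive minus AgRP-negative nuclei, near that line.

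In POMC neurons the median fold change of the chain genes with fasting was below 0, and none passed the test. Of 79 genes tested 0 were called, as were 0% of all 13412 genes (135 lay higher and 147 lower at an unadjusted p under 0.05). The median was -0.12 in fasted minus fed POMC neurons, with 12 of 79 above 0, and within replicate number it was -0.10 (17 of 79 higher) and -0.15 (6 of 79). It was -0.25 without fasted replicate 1 and 0.03 without fasted replicate 2. Cox7c was the lowest of the 79, at 12.4 and 12.7 CPM fed and 9.14 and 10.1 fasted (-0.38 ± 0.14). Leptin against fasted (median 0.04) and against fed POMC neurons (-0.08) had 0 called genes, also at a background of 0%.

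The fasting effect was therefore compared between the lines directly. The difference, AgRP minus POMC, had a median of 0.23 over the 80 genes and was above 0 for 71, and 0 genes passed the test, with 0.164% of all genes called. With replicate number as a block, 3 did, against 4.33% of all genes called higher: Cox7c (0.71 ± 0.14, adjusted p 0.00493), Ndufa1 (0.60 ± 0.16, 0.0233) and Uqcrq, a ubiquinone-binding subunit of complex III (0.57 ± 0.13, 0.0125). Uqcrq was at 27.5, 35.4 and 28.6 CPM fed and 30.0, 37.7, 44.7 and 32.6 fasted in AgRP neurons, and at 33.2 and 27.6 fed and 27.0 and 20.3 fasted in POMC neurons. In each replicate number with both states the fasted value was above the fed one in AgRP neurons and below it in POMC neurons. Uqcrq was picked by the block test on these same libraries, so this pattern adds no support. On adjusted p alone in the block, 7 genes were under 0.05, all higher in AgRP neurons (Cox7c, Ndufa1, Uqcrq, Atp5g1, Cox5a, Atp5g3 and Atp5d), against 10.2% of all genes. The leptin effect gave 0 called genes (0.0819% of all genes), with a median of -0.12.

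Between lines in the same state, most chain genes did not pass the test, and those called were higher in AgRP neurons, after fasting or with leptin. Line and library batch cannot be told apart in these comparisons. In fed mice 0 of 80 genes were called (3.21% of all genes), with a median of 0.14 and 73 of 80 above 0. The highest were Atp5g2 (1.17 ± 1.21), Ndufa3 (0.62 ± 0.28) and Ndufa5 (0.49 ± 0.25), both accessory subunits of complex I, and the lowest were Atp5l (-0.33 ± 0.39), Cox6a1 (-0.30 ± 0.20) and Ndufab1, the mitochondrial acyl carrier protein (-0.27 ± 0.34).

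In fasted mice 7 genes were called higher in AgRP than in POMC neurons and 0 lower, at a background of 8% called higher, which is near the share among the 80. Over the 80 genes the median was 0.40, 74 were above 0 and 34 had all AgRP libraries above all POMC libraries, against 19.4% of all genes. By complex the medians were 0.50 in complex IV, 0.43 in complexes III and V, 0.41 in complex I, 0.21 in complex II and 0.20 in the assembly factors. In the same comparison the medians of astrocyte (-0.34), oligodendrocyte (-0.31) and microglial markers (-0.44) were below 0, each with 1 of 6 genes above 0. Cytosolic ribosomal protein genes had a median of 0.51 and mitochondrial ribosomal protein genes 0.28. The part of these in the chain genes was not tested. The medians of chain genes with and without a near-identical copy were 0.41 and 0.40.

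The called genes were 4 accessory or core subunits of complex I (Ndufa1, Ndufa2, Ndufs8 and Ndufc2), the assembly factor Ndufaf4, Uqcrh of complex III and Cox5a of complex IV. Ndufa2 differed most (0.94 ± 0.28, adjusted p 0.0315), at 25.6, 31.2, 36.6 and 20.2 CPM in fasted AgRP and 15.2 and 14.5 in fasted POMC libraries. Ndufs8, which carries iron-sulfur clusters, was at 43.0, 50.9, 55.3 and 33.3 against 30.9 and 26.2 (0.68 ± 0.21, 0.0381). Cox5a was at 86.7, 99.0, 103.7 and 79.8 against 65.7 and 57.7 (0.58 ± 0.14, 0.0122). In all 3 the lowest AgRP library was replicate 4, and it still lay above both POMC libraries. The others were Ndufa1 (0.66 ± 0.18, 0.0196), Ndufaf4 (0.56 ± 0.15, 0.0190), Uqcrh (0.53 ± 0.14, 0.0190) and Ndufc2 (0.53 ± 0.14, 0.0197). The number of calls depended on single libraries, from 0 without POMC fasted replicate 2, 2 without AgRP fasted replicate 3, 3 without POMC fasted replicate 1 and 4 without AgRP fasted replicate 2 to 22 without AgRP fasted replicate 4. Without the AgRP replicate-4 and POMC replicate-2 libraries, which leaves 1 fasted POMC library that is assumed to vary like the others, 5 genes were called. Ndufaf4 (0.56, adjusted p 0.00793) was the 1 of the 7 that remained, and the other 4 were Ndufaf2 (0.77), Ndufa3 (0.68), Ndufv1 (0.67) and Ndufb3 (0.59). In fed mice 0 were called without these libraries.

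With leptin, Ndufaf4 alone was called, at 43.8 ± 7.48 CPM in AgRP neurons (SD, n = 4) and 24.1 ± 2.48 in POMC neurons (n = 2). The log2 difference was 0.86 ± 0.15 (SE; adjusted p 0.00196), and 6.41% of all genes were called higher. The median over the 80 genes was 0.28 and 72 were above 0. The count rose to 3 without AgRP leptin replicate 1, 6 without AgRP leptin replicate 4 and 2 without the AgRP replicate-4 and POMC replicate-2 libraries.

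Among genes that serve the chain but are not members, a few passed the test. Among 36 other assembly factors and cytochrome c genes tested, 2 fell in fasted against fed AgRP neurons, where 143 of all 13401 genes fell: Bcs1l, which inserts the Rieske protein into complex III (-0.80 ± 0.13, adjusted p 0.00575), and Sdhaf4, which helps to assemble complex II (-0.61 ± 0.12, 0.0165). Both were also lower with leptin against fed (-0.65 and -0.63), as were 235 of all 13401 genes. The 14 genes of pyruvate dehydrogenase and the citrate cycle had 0 calls and a median of 0.10 in fasted minus fed, and the 67 mitochondrial ribosomal protein genes had 0 calls and a median of 0.09. Among 12 regulators of mitochondrial biogenesis 0 were called with fasting, and Pprc1, a coactivator related to PGC-1, was higher with leptin against fed (0.63 ± 0.14, adjusted p 0.0228), as were 500 of all 13401 genes. In AgRP against POMC neurons the nuclear receptor gene Esrra was higher after fasting (0.60 ± 0.18) and with leptin (0.59 ± 0.18), and the coactivator gene Ppargc1b was lower with leptin (-0.90 ± 0.28). Among 16 carriers, uncoupling and antioxidant genes, the adenine nucleotide carrier Slc25a5 was higher with leptin against fed (0.53 ± 0.15) and in AgRP against POMC neurons after fasting (0.97 ± 0.16) and with leptin (0.79 ± 0.16). The uncoupling protein gene Ucp2 was higher in AgRP than in POMC neurons in fed (1.15 ± 0.28) and fasted mice (1.00 ± 0.26). The glutathione peroxidase gene Gpx1 was lower in AgRP neurons after fasting (-0.78 ± 0.24) and with leptin (-0.85 ± 0.24). Tmem126a, a complex I assembly factor, was higher in AgRP neurons after fasting (0.76 ± 0.22). Of all 13435 genes in these comparisons of lines, 1075 were called higher and 716 lower after fasting. With leptin 861 were higher and 636 lower, and in fed mice 228 and 203. After fasting, 8 of 67 mitochondrial and 13 of 77 cytosolic ribosomal protein genes were called higher in AgRP neurons, and 0 lower.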

How the data were processed

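Ribosome-bound RNA of AgRP and POMC neurons and ATAC-seq of AgRP nuclei were used. As the authors describe, RNA reads were depleted of ribosomal RNA, aligned with HISAT2 and counted with featureCounts on a GRCm38 annotation changed to lessen overlap between transcripts, and ATAC-seq reads were aligned to mm10 with Bowtie2, with peaks called by MACS2 and counted with bedtools; versions are not given in the sources used here. The deposited values used are raw counts per gene and per peak in each library. Depth was 25581041 to 54511107 counts per RNA and 8263234 to 17190963 per ATAC-seq library, and where labels name no separate animals for replicates, p-values measure the spread between these samples. The RNA of whole arcuate nucleus and CUT&RUN were not analysed here.

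Features with a mean over 1 CPM were scaled by TMM and fitted with edgeR 4.0.16 (R 4.3.3), state or line by state as the factor, with Benjamini-Hochberg adjustment over all features; a call needed an adjusted p under 0.05 and a log2 fold change beyond 0.5. Standard errors are those implied by the F statistic. AgRP states, POMC states and both lines together were 3 models. CPM values are TMM-scaled. Scripts were tested on simulated data. Near-identical copies were found with minimap2 2.31-r1302. Same-numbered AgRP libraries were mostly alike. The correlation of their residuals from group means was 0.566 to 0.838 (10 pairs, median 0.717). Other AgRP pairs had a median of -0.245 but ran from -0.672 to 0.673, so the ranges overlapped. Same-numbered POMC pairs gave 0.759 to 0.795 (6 pairs). With 2 POMC libraries per state the residuals mirror each other. The same-numbered POMC pairs therefore repeat each value in both replicate numbers, and other POMC pairs give no contrast. Replicate number was an alternative block. Other alternatives were scaling, the filter, DESeq2 1.42.0 and leaving out each library. Genes named were those called between states, the 3 highest and 3 lowest in AgRP fasted minus fed and in fed AgRP minus POMC, fixed core subunits and tissue isoforms; others were named after their values were seen. The members, lists and tests were chosen with earlier results of these data known. The values of 1 fixed core subunit are not reported here.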

Additional observations from a re-analysis of the deposited data

Results flagged for a closer look

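In groups of 4 AgRP libraries, 1 library stood far from the other 3 for 3 genes, by Dixon's ratio of the gap to the range and its critical value for 4 samples, out of the 90 values tested; chance flags about 1 in 20. Uqcrfs1, the Rieske protein of complex III, was at 94.7 CPM in fasted replicate 4 and at 121 to 125 in the others. Atp5c1, the central shaft of ATP synthase, was at 71.5 CPM in leptin replicate 1 and at 102 to 108 in the others. Cox7a2l was at 36.7 CPM in leptin replicate 4 and at 43.6 to 44.8 in the others.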

How the results depend on the processing

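With scaling by library size alone, the calls went from 1 to 0 in AgRP leptin minus fed, from 7 to 1 in fasted AgRP minus POMC, and to 2 peaks in ATAC-seq fasted minus fed and 2 in AgRP-positive minus AgRP-negative nuclei. In AgRP minus POMC with leptin, DESeq2 size factors gave 2 calls and DESeq2 gave 4. The replicate block gave 3 calls for the fasting effect between lines and changed no other count of calls by over 1.5 times. It moved the AgRP medians from 0.12 to 0.067 in fasted minus fed and from 0.05 to -0.0095 in leptin minus fed, both by less than the spread within groups. On adjusted p alone, chosen after seeing the data, it gave 9, 1, 7 and 7 genes in AgRP fasted minus fed, leptin minus fasted, leptin minus fed and the fasting effect. Leaving out the replicate-4 libraries, also chosen after seeing the data, gave 1 call in AgRP leptin minus fasted, and without the AgRP replicate-4 and POMC replicate-2 libraries there were 2 in AgRP minus POMC with leptin. Leaving out 1 library at a time gave 0 to 1 calls in AgRP leptin minus fasted, 0 to 1 in leptin minus fed, 0 to 22 in fasted and 1 to 6 in leptin-treated AgRP minus POMC, 0 to 3 peaks in ATAC-seq fasted minus fed and 5 to 10 between sorted nuclei, and moved the POMC fasted minus fed median between -0.25 and 0.028. The causes of these changes were not tested, save that a library left out leaves fewer samples, and a lone POMC or ATAC-seq library was assumed to vary like the others. The other 271 counts and medians kept their direction or stayed close. Of 494 alternative fold changes of 38 named genes in AgRP fasted minus fed, 50 (in 14 genes) had the other sign and none was called. With 2 POMC libraries per state, only 25 of 79 genes had a fasting interval within 0.5 of 0.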
